A study of Mus musculus with 2 samples.

Results

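The uninflamed air pouch membrane is described here by its baseline gene expression, as measured on the control array alone. Members were the mouse genes to which the platform annotation gives at least 1 probe set of their own, a probe set being the set of oligonucleotides on the array for 1 transcript, and each gene was given the signal of its brightest probe set on that array. This left 18193 genes. The annotation gives 1 gene to 34958 of the 45101 probe sets on the array, and any Affymetrix control probe sets among these were left out. The study compared membranes of pouches that had received monosodium urate crystals with membranes of pouches that had received phosphate-buffered saline (PBS) only, and the crystal array is not compared here. Control animals were female Balb/C mice 6 to 8 weeks old whose dorsal pouch, raised under the skin with 2 ml of air, received 1 ml of PBS without crystals on day 7 by the sample records and was dissected 9 h later. The paper's methods give a larger first volume of air, a second inflation and an injection one day earlier. RNA of 3 control membranes was pooled before labelling and hybridised to 1 array, so there were no replicates, no test was possible, and neither the spread between mice nor that between arrays can be seen. "Resting" therefore means PBS-injected and without crystals, not untouched.

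Air injected under the skin of the back becomes walled off by new connective tissue, and researchers use the result as a model of joint synovium, whose lining also faces a fluid-filled space without an epithelium. Connective tissue of this kind is built by fibroblasts, which lay down fibrillar collagens cross-linked outside the cell, and is patrolled by resident macrophages that depend on the cytokine CSF1. Its blood vessels, nerves and resident immune cells make up the rest, and the wall borders on subcutaneous fat and the muscle of the back.

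Signals were linear intensities with a median of 56.4 over the probe sets and a highest value of 11909. The detection floor was set at 64.6, the signal at which the ranked probe sets reach the number that the paper counts as detected on the control array. Of the 18193 genes, 11128 lay at or above this floor, which is 61.2% and the background for the counts below, and the median gene signal was 107. A signal between the floor and 97.0, which is 1.5 times the floor, is called near the floor, and 1591 of the genes above the floor (14.3%) fell in this range. Of 6 Y-linked genes, which female mice lack, 0 reached the floor, with Usp9y 40.1 the highest, while Xist, the RNA of the inactive X chromosome, had a signal of 1589. Of 75 odour, pheromone and taste receptor genes, 6 reached the floor (8%), the highest at 91.2, and 7 of 36 genes of the retina, liver, brain, gut, kidney, lung and testis did. Those 7 were Cyp2e1 1749.8, a gene that fat also expresses, Uox 181 and 5 genes near the floor. A gene with several probe sets was given the brightest of them, and 45.3% of the 9183 genes with 1 probe set and 77.3% of the 9010 genes with several lay above the floor. Brightest and dimmest probe sets of a gene differed by a median of 5.39-fold, and by over 4-fold in 5210 genes. Signals of different genes are therefore given as descriptions and ranks, and their order is not an order of transcript amounts. In a membrane measured whole, fewer cells of a type and less RNA per cell cannot be told apart. Xist had probe sets that differed by over 4-fold.

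The brightest gene of the membrane was Col3a1, the chain of type III collagen, with a signal of 11909, and Col1a2 followed at 11593 and Sparc, a collagen-binding matricellular protein, at 11096. Among the 40 highest signals, 11 belonged to secreted or structural matrix and fibroblast genes: Col3a1, Col1a2, Sparc, Vim, Col1a1, Postn, Fn1, Col5a2, Bgn, Col6a2 and Dcn. Also among the 40 were the lysosomal protease Ctsb 9164, progranulin Grn 8845, the lysozyme genes Lyz2 7959 and Lyz1 7813, the complement subunit C1qa 6685 and the lipid carrier Apoe 7977. Of these, Lyz2 and C1qa are on the list of resident macrophage markers. Lyz1 and Lyz2 are near-identical in sequence, so probe sets of either may bind RNA of both. Skeletal muscle was represented by Acta1 7311, the muscle actin, and Ckm 6709, the creatine kinase of muscle, and fat together with muscle by the carbonic anhydrase Car3 7572. The selenium carrier Selenop 8151 and the galectin Lgals1 7842 were further members of the 40. The other 18 of the 40 genes encode ribosomal proteins and a translation factor (Eef1a1, Rps2, Rps29, Rps10, Rps28, Rpl4, Rpl41), cytoskeletal proteins and thymosins (Actb, Tmsb4x, Tuba1a, Actg1, Tmsb10), glycolytic and related enzymes (Aldoa, Pgk1, Akr1a1), the ferritin chain Fth1, the translationally controlled tumour protein Tpt1 and the membrane protein Itm2b. Across whole gene classes set by symbol, 48 of 49 cytosolic ribosomal protein genes lay above the floor, 20 of them among the 100 highest signals. Rps3a1 4806, also among these 100, was not counted in that class. Of the collagen chain genes 25 of 42 lay above the floor, a share near the 61.2% of all genes, with 8 among the 100 highest signals. Keratins were sparse, with 13 of 44 above the floor and 0 among the 1000 highest signals. Col1a2, Sparc, Fn1, Dcn, Ctsb, Lyz1, Ckm, Car3, Tpt1, Rps10, Rpl41, Actb, Tmsb10, Aldoa, Pgk1 and Itm2b had probe sets that differed by over 4-fold.

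Fibroblast genes had the highest median signal of the cell type lists. Of the general fibroblast markers, 16 of 16 lay above the floor, with a median signal of 3930.0 against 107 for all genes, and the lowest of them was Fbln1 702. Besides the collagens, the intermediate filament gene Vim 10009 and the small proteoglycans Dcn 7359 and Lum 4666 stood out. The receptors that mark fibroblasts were present too, with Pdgfra 2340.3, Thy1 1972, Pdpn 2111 and Pdgfrb 757, as was the surface protease Fap 1199. Of the markers of dermal and fascial fibroblasts, 19 of 21 lay above the floor. They were led by Pi16 3499.6, a marker of fibroblasts around vessels, the Wnt antagonist Sfrp2 3407, Plac8 2384 and Cd34 2197. Dpp4 419, which marks fascial fibroblasts, and the mesenchymal transcription factors Prrx1 1307, Twist2 415 and Twist1 258 were above the floor as well. The dermal lineage factor En1 81.7 was near the floor, and Tcf21 62.8 and Crabp1 20.8 lay below it. Fbln1, Pdgfra, Pdgfrb, Pi16, Dpp4 and Prrx1 had probe sets that differed by over 4-fold.

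Markers of myofibroblasts and of young granulation tissue were expressed too, and 10 of 10 lay above the floor, with a median of 2965. Periostin (Postn 8448), fibronectin (Fn1 8391) and tenascin C (Tnc 4638), glycoproteins of a matrix under repair, were joined by Cthrc1 4316 and Lrrc15 1858, which are characteristic of activated fibroblasts, and by smooth muscle actin, Acta2 4072. These pouches had received no crystals. Tnc and Acta2 had probe sets that differed by over 4-fold.

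Of the synovial lining markers 13 of 14 lay above the floor, with a median of 605. Some of them, such as Thbs4 and Cd55, are also on other lists here. The signals of 1 array cannot tell a synovial lining from other connective tissue. Prg4 1317 encodes lubricin, the glycoprotein that makes joint surfaces slide. Hyaluronan synthesis was represented by Ugdh 2043, which makes a precursor sugar, and by the synthases Has1 667 and Has2 140.3, whereas Has3 9.81 lay below the floor. The hyaluronan receptor Cd44 1838, the serine protease Htra1 2292, the thrombospondin Thbs4 1284 and Cdh11 1074, the cadherin that joins lining fibroblasts, were in the same list. Vcam1 543, Cd55 294, Creb5 246, Hyal2 233 and Clic5 143 were lower in the list. Of the markers of mesothelium, another tissue that lines fluid-filled spaces, 1 of 8 lay above the floor, and this was Krt19 257, a keratin of many epithelia. Msln 4.02, Upk3b 24.9, Wt1 53.1, Muc16 44.3, Lrrn4 16.3, Gpm6a 11.3 and Bnc1 4.88 lay below it. Cd44, Cdh11, Creb5 and Clic5 had probe sets that differed by over 4-fold.

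**Figure D1:**
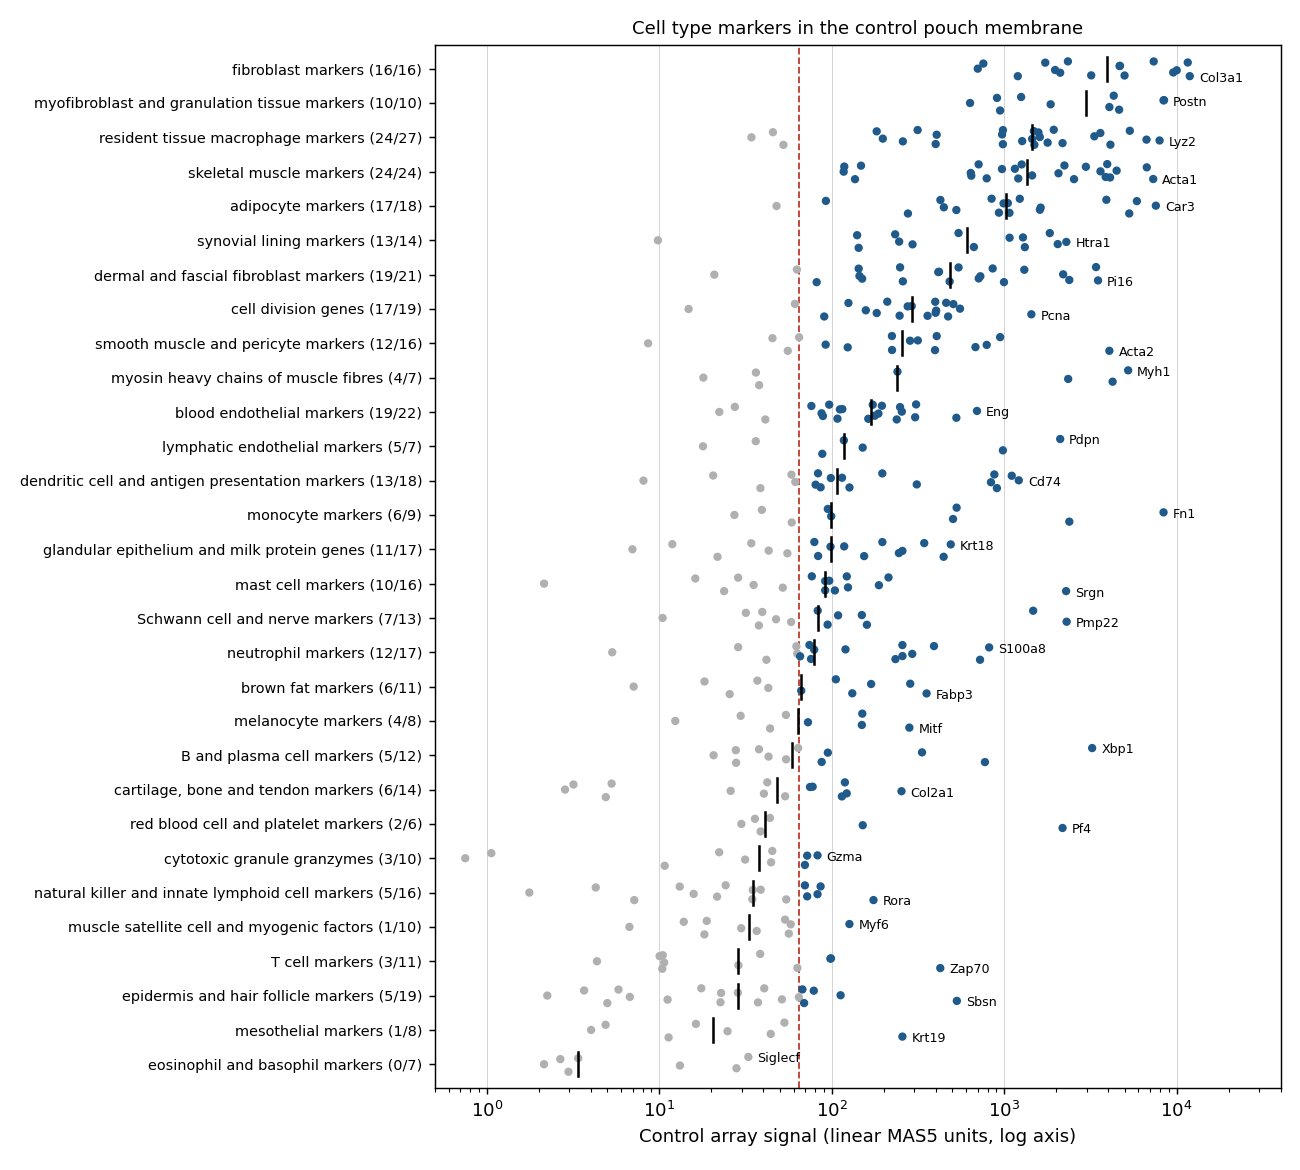
Signals of cell type markers on the control array, with 1 point per gene, lists in the order of their median (black bar) and the detection floor of 64.6 as a dashed line. Blue points lie at or above the floor and grey points below it, and each list gives how many of its named genes lie above. All 16 fibroblast and all 24 skeletal muscle markers lie right of the floor, and all 7 eosinophil and basophil markers left of it.

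Among the immune cell lists, that of resident macrophages had the highest median signal. Of its markers 24 of 27 lay above the floor, with a median of 1452. The lysozyme gene Lyz2 led, followed by the 3 chains of complement C1q, C1qa 6685, C1qc 4128 and C1qb 3330.0, and by the CSF1 receptor, Csf1r 5349. The mannose receptor Mrc1 3609, the folate receptor Folr2 1785, the haemoglobin scavenger receptor Cd163 1270.5 and Lyve1 982 are typical of macrophages that reside around vessels in connective tissue. General markers were Adgre1 1495 (F4/80), Cd68 1485 and Tyrobp 1452, and the lineage transcription factor Maf 1937 was present as well. The members of the list below the floor were Timd4 52.4, a marker of self-renewing macrophages, Siglec1 45.6 and Marco 34.2, a marker of alveolar and marginal zone macrophages. Maf and Marco had probe sets that differed by over 4-fold.

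Monocyte markers were mixed, with 6 of 9 above the floor. Ccr2 505, the receptor through which monocytes enter tissue, and Nr4a1 529.5 were above it, but Fn1 8391 and Plac8 are shared with fibroblasts, Chil3 99.2 lay just over 97.0 and Spn 94.9 near the floor. Cx3cr1 39.3, Treml4 27.2 and F10 58.6 lay below it. In the annotation the Ly6c genes had no probe set of their own, and the probe set assigned to both Ly6c1 and Ly6c2 read 2826. Antigen presentation was clear from the class II genes Cd74 1215, H2-Aa 1106, H2-Eb1 907, H2-Ab1 876 and H2-Ea 838, although Ciita 38.6, their master regulator, lay below the floor. Of the list for dendritic cells and antigen presentation, 13 of 18 lay above the floor, among them Irf8 311, Itgax 127 and Cd209a 115. Flt3 61.4, Siglech 58.4, Xcr1 20.5 and Ccr7 8.09, which define dendritic cell subsets and migrating dendritic cells, lay below it. Cx3cr1, H2-Aa, H2-Ea and Ciita had probe sets that differed by over 4-fold.

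Neutrophil markers gave a lower list median, with 12 of 17 above the floor, 4 of them near it, and a median of 79.05 against 107 for all genes. The calprotectin chains S100a8 817 and S100a9 724 led, followed by Lcn2 391, the formyl peptide receptor Fpr2 293, the CSF3 receptor Csf3r 257, Mmp9 257 and lactoferrin, Ltf 234. Granule proteases made early in neutrophil development, Elane 28.6 and Prtn3 41.8, lay below the floor, as did the granule peptide Camp 5.33, the chemokine receptor Cxcr2 63.01 and Cd177 62.3. Myeloperoxidase, Mpo 74.2, was near it.

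Mast cell markers gave 10 of 16, which is 62.5% beside 61.2% of all genes, and 4 of the 10 were near the floor. The chymase Cma1 213, carboxypeptidase Cpa3 188 and tryptase Tpsab1 122 lay above the floor with the stem cell factor receptor Kit 124. Srgn 2284, the proteoglycan of secretory granules, is found in many leukocytes. Tpsb2 96.7, Mcpt4 91.6, Hdc 91.6 and Hpgds 76.6 were near the floor, and both chains of the IgE receptor on the list, Fcer1a 16.2 and Ms4a2 35.2, lay below it. Kit, Tpsb2 and Hdc had probe sets that differed by over 4-fold.

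Most defining genes of lymphocytes and eosinophils lay below the floor. Among T cell markers, 3 of 11 lay above the floor. Zap70 426 did so by 1 of 3 probe sets, Il7r 98.9 by 1 of 2 and Cd8a 98.2 by 1 of 5. The CD3 chains Cd3g 38.4, Cd3d 10.7 and Cd3e 10.5, which every T cell carries, and Cd4 10.4, Cd2 10.04, Cd5 63.2, Cd8b1 4.35 and Foxp3 28.8 lay below it. Of the markers of natural killer and innate lymphoid cells, 5 of 16 lay above the floor, and 4 of these were near it. The other was Rora 175, a nuclear receptor of many tissues. Ncr1 34.6, Eomes 21.6, Tbx21 15.8 and Gata3 13.1 lay below. Granzymes and perforin gave 3 of 10, all of them near the floor, namely Gzma 82.7, Prf1 72.00 and Gzmb 69.8, with Gzmd 22.2 among those below. For B and plasma cells the count was 5 of 12, led by Xbp1 3235 and Sdc1 773, which other secretory and epithelial cells share, while Cd79a 42.99, Cd79b 27.9, Ms4a1 54.3, Jchain 20.6, Blk 63.8, Fcer2a 37.8 and Tnfrsf17 27.8 lay below. Ighm 334 passed by 3 of its 11 probe sets. Pax5 87.4 and Mzb1 94.9 were near the floor. Of 7 eosinophil and basophil markers 0 reached the floor, from Siglecf 32.8 down to Mcpt8 2.15, with Epx 28.01, Ccr3 13.2, Prg3 3.39, Prg2 2.97 and Il5ra 2.67 between. Zap70, Il7r, Cd8a, Rora, Eomes, Xbp1, Sdc1, Ms4a1, Fcer2a, Ighm and Pax5 had probe sets that differed by over 4-fold.

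Blood vessels were represented by 19 of 22 endothelial markers above the floor and a median of 168. The TGF-beta co-receptor Eng 695, the chemokine-binding Ackr1 528 of venules, Plvap 308 of fenestrated and venular endothelium and the junction protein Esam 304 led. Pecam1 249, Cdh5 186, Kdr 178 and Vwf 108, which define endothelium, also lay above the floor. Selp 195, the selectin that endothelium stores, was above the floor, whereas Sele 22.3, the selectin that it makes on activation, was below it with Tie1 41.2 and Erg 27.4. Lymphatic markers gave 5 of 7, of which Pdpn 2111 is shared with fibroblasts and Lyve1 982 with macrophages, Reln 151 and Sema3d 118 passed by 1 of 2 probe sets each, and Flt4 88.1 was near the floor. Prox1 17.9, the factor that defines lymphatic identity, and Mmrn1 36.2 lay below it. In the wall of vessels, 12 of 16 smooth muscle and pericyte markers lay above the floor. Acta2 4072 and Tagln 947 are shared with myofibroblasts and Des 791 and Abcc9 406 with skeletal muscle, while Rgs5 681 and Notch3 316 are pericyte genes. Of the genes of contractile smooth muscle, Myh11 55.6, Lmod1 8.61 and Cnn1 64.6, which fell just short of the floor, lay below it. Eng, Selp, Erg, Reln, Sema3d, Prox1, Mmrn1, Des, Rgs5, Abcc9, Notch3 and Myh11 had probe sets that differed by over 4-fold.

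Red cell and platelet markers with a probe set of their own gave 2 of 6, and both that passed, Pf4 2179 and Itga2b 151, are platelet genes, the former of them also made by macrophages. Hba-a1 35.8, Alas2 38.7, Slc4a1 29.9 and Ppbp 43.8 lay below the floor. Haemoglobin was seen through probe sets assigned to several globin genes, which read 1907 for the beta chains and up to 1337 for the alpha chains, so counting such probe sets for each of their genes raised the count to 4 of 7. Slc4a1 had probe sets that differed by over 4-fold.

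Of the adipocyte markers 17 of 18 lay above the floor, with a median of 1020.0. Carbonic anhydrase 3, the fatty acid carrier Fabp4 5879, the desaturase Scd1 5307 and lipoprotein lipase, Lpl 3912, led. The adipocyte hormones adiponectin (Adipoq 1609.6) and resistin (Retn 932) were high in the ranking and leptin (Lep 92.5) was near the floor. Cebpa 1049, a transcription factor of fat, was above the floor, and Pparg 47.8, the other, was below it by its only named probe set. The uncoupler of brown fat, Ucp1 18.3, and Cidea 37.03, Prdm16 25.6, Elovl3 42.9 and Otop1 7.1 lay below the floor. The 6 of 11 brown fat markers above it were Fabp3 355, Cox8b 285, Cox7a1 131, Ebf2 169, Dio2 106 and, near the floor, Ppargc1a 66.5, of which Fabp3, Cox8b and Cox7a1 are also muscle genes. Fabp4, Scd1, Lpl, Prdm16, Fabp3 and Ppargc1a had probe sets that differed by over 4-fold.

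Of the skeletal muscle markers 24 of 24 lay above the floor, with a median of 1357. The genes of fast fibres, Tnnc2 4486, Tnnt3 4109.9, Tnni2 2539, Actn3 2234, Atp2a1 3614 and Pvalb 1451, were all over 1000, and the troponins of slow fibres were Tnnt1 136, Tnnc1 118 and Tnni1 117. Dmd 148, dystrophin, passed by 2 of 4 probe sets. Myosin heavy chains gave 4 of 7, since those of the fast fibres IIx (Myh1 5232), IIb (Myh4 4252) and IIa (Myh2 2349) and the slow chain Myh7 240.4 lay above the floor and the embryonic Myh3 37.9, perinatal Myh8 36.3 and cardiac Myh6 18.00 below it. Of the genes of muscle stem cells and regenerating fibres 1 of 10 lay above the floor. That gene was Myf6 127, a factor of mature fibres, and Pax7 18.8, Pax3 53.6, Myf5 6.71, Myod1 57.8, Myog 29.8, Cdh15 36.7, Calcr 18.3, Chrna1 56.4 and Mymk 13.9 lay below. Fat and muscle adjoin the base of the membrane. The paper saw neither in the histology of dissected membranes. By quantitative PCR its control membranes varied in resistin and dystrophin mRNA, which it proposes to come from small remnants of both tissues. How much of the signals on this array came from adjoining tissue was not tested. Tnni2, Dmd, Myh1, Myh4, Myh6, Pax3 and Myod1 had probe sets that differed by over 4-fold.

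The overlying skin was removed in the dissection, and how much of it was carried over was not tested. Of its genes, those of epidermis and hair follicle mostly lay below the floor, unlike the markers of dermal and fascial fibroblasts given above. Epidermal and follicle markers gave 5 of 19, 3 of them near the floor, and the epidermal keratins Krt14 37.3 and Krt1 6.74, the cornified envelope gene Flg 5.8 and the follicle gene Tchh 2.24 lay below it. Sbsn 531, suprabasin, was the highest of the list by all 3 of its probe sets and Krt5 112 the next. Of the genes of simple and glandular epithelium 11 of 17 lay above the floor, which is 64.7% beside 61.2% of all genes. Among them were Krt18 489.7, Epcam 445, Krt8 344 and Krt19 257, while the milk proteins Csn2 43.05, Csn1s1 6.98 and Lalba 11.9 lay below and Wap 79.2 was near the floor. Melanocyte markers gave 4 of 8: Mitf 282, also a factor of macrophages, Slc45a2 150.3, Sox10 149, also of Schwann cells, and Pmel 72.8, near the floor. The pigment enzymes Tyr 43.9, Tyrp1 29.6 and Dct 54.2 and the melanosome gene Mlana 12.4 lay below. Schwann cell and nerve markers gave 7 of 13, which is 53.8% beside 61.2% of all genes, and 2 of the 7 were near the floor. The myelin genes Pmp22 2301, which fibroblasts also express, and Mbp 1472 were the highest. The neurofilaments Nefl 31.8 and Nefm 10.4 and the Schwann cell markers S100b 37.8, Cdh19 58.1 and Ngfr 39.5 lay below the floor. Cartilage, bone and tendon gave 6 of 14, with Col2a1 254, Tnmd 122, Fmod 119 and Col9a1 114 as the highest and Acan 42.3, Sp7 40.4 and Scx 53.7 below. Sbsn, Mitf, Tyr, Mbp, S100b, Ngfr and Fmod had probe sets that differed by over 4-fold.

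Genes of cell division were expressed in the control membrane. Of these 17 of 19 lay above the floor, with a median of 291 against 107 for all genes. The replication clamp Pcna 1436, the helicase subunits Mcm2 554 and Mcm5 473, the ribonucleotide reductase subunit Rrm2 460.5 and the mitotic kinase Cdk1 507 led, and Mki67 400.1, Top2a 398 and Birc5 359, which mark cells in cycle, were present. Bub1b 61.1 and Tyms 14.8 lay below the floor. Which cell type divided cannot be read from a whole membrane. Mcm5, Top2a, Bub1b and Tyms had probe sets that differed by over 4-fold.

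Among matrix, receptor and secreted factor genes, those of the matrix had the largest share above the floor, with 156 of 185 named matrix genes (84.3%) above the floor beside 61.2% of all genes. Fibrillar collagens gave 10 of 11. After the chains of types I and III came those of type V, Col5a2 7965, Col5a1 5343 and Col5a3 3924, which set the thickness of type I fibrils. The chains of Col27a1 513, Col2a1 254 and Col24a1 161 were lower in the list, Col11a1 85.3 was near the floor and Col11a2 37.3 below it. Network and beaded filament collagens gave 9 of 13. Type VI collagen, the beaded filament around cells, was complete in its 3 classical chains, Col6a2 7492, Col6a1 5332 and Col6a3 4856. Of the basement membrane collagen IV, the ubiquitous chains Col4a1 1554 and Col4a2 514 and Col4a5 196 lay above the floor, and the chains Col4a3 42.3, Col4a4 15.9 and Col4a6 24.5 of kidney and other specialised membranes below it. Of the fibril-associated, multiplexin and membrane collagens only 6 of 15 passed, led by Col14a1 3367, Col12a1 2382 and Col16a1 1304, which sit on the surface of fibrils, and followed by Col18a1 736, Col15a1 543 and Col9a1 114. Col17a1 2.95, a collagen of epidermal anchorage, lay below the floor, whereas Col7a1 302 of the network list, another such collagen, lay above it. Col5a3, Col4a3, Col4a4, Col14a1 and Col12a1 had probe sets that differed by over 4-fold.

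The machinery that makes collagen was expressed with it, at 21 of 22 genes above the floor. Among these were the prolyl hydroxylase subunits P4hb 6251, P4ha1 1203 and P4ha2 1256, the collagen chaperone Serpinh1 5980.1 and the enhancer of propeptide cleavage Pcolce 5586. The proteinase Bmp1 1495 and the cross-linking lysyl oxidases Lox 3194 and Loxl1 3676 also passed. The genes named act at several steps from hydroxylation to cross-linking. P3h2 60.9, the prolyl 3-hydroxylase of basement membrane collagen, was the gene below the floor. Of the elastic fibre genes 15 of 15 lay above it, led by Mfap5 4986, Fbln2 4689.6, Efemp1 1909 and Emilin2 1656. Elastin itself (Eln) gave 862 and passed by 1 of 2 probe sets. Small leucine-rich proteoglycans, which bind collagen fibrils, gave 9 of 12, with Bgn 7688, Dcn and Lum ahead of Ogn 2241 and Aspn 2219.8, and with the cartilage and cornea members Omd 29.9, Kera 8.92 and Chad 2.84 below the floor. Of the larger and cell surface proteoglycans 17 of 18 passed, Tgfbr3 2818 (betaglycan), Srgn, Prg4 and Vcan 1126 (versican) at the top, and Acan 42.3, the cartilage aggrecan, was below the floor. Bmp1, Lox, Loxl1, Fbln2, Eln, Tgfbr3 and Vcan had probe sets that differed by over 4-fold.

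Adhesive and matricellular glycoproteins gave 29 of 30, with Tnr 8.79, tenascin R of the nervous system, as the gene below. After Sparc, periostin and fibronectin came Dpt 5419.5 (dermatopontin), Tnc 4638, Igfbp7 4205, Thbs2 3751 and Tgfbi 3549. Basement membranes gave 14 of 18, led by Nid1 3509.6 and with the laminin chains Lamc1 1467, Lama4 1116, Lamb1 1111 and Lama2 374 of vessels, muscle and fat. The laminin 332 chains of epithelium, Lama3 63.5 and Lamb3 33.1, lay below the floor, as did Lama1 12.5 and Lamc3 44.3. Enzymes of matrix turnover were broadly expressed at 24 of 28 metalloproteinases, led by gelatinase A (Mmp2 4784), its activator Mmp14 2844, Adam9 1982 and stromelysin 1 (Mmp3 1922). The aggrecanases Adamts4 709 and Adamts5 577 and collagenase 3 (Mmp13 335) were above the floor, and Mmp10 34.5, Mmp16 55.05, Mmp17 56.03 and Adamts8 37.7 below it. The list of protease inhibitors of matrix turnover, not limited to those of metalloproteinases, gave 9 of 10. Serpinf1 5268, Serping1 4286, Timp2 3768 and Timp1 3446 were at the top and A2m 60.1 was below the floor. Igfbp7, Nid1, Lamc1, Lama4, Lamb1, Lama3, Lamc3, Mmp14, Adamts4, Adamts5, Mmp16 and Timp2 had probe sets that differed by over 4-fold.

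**Figure D2:**
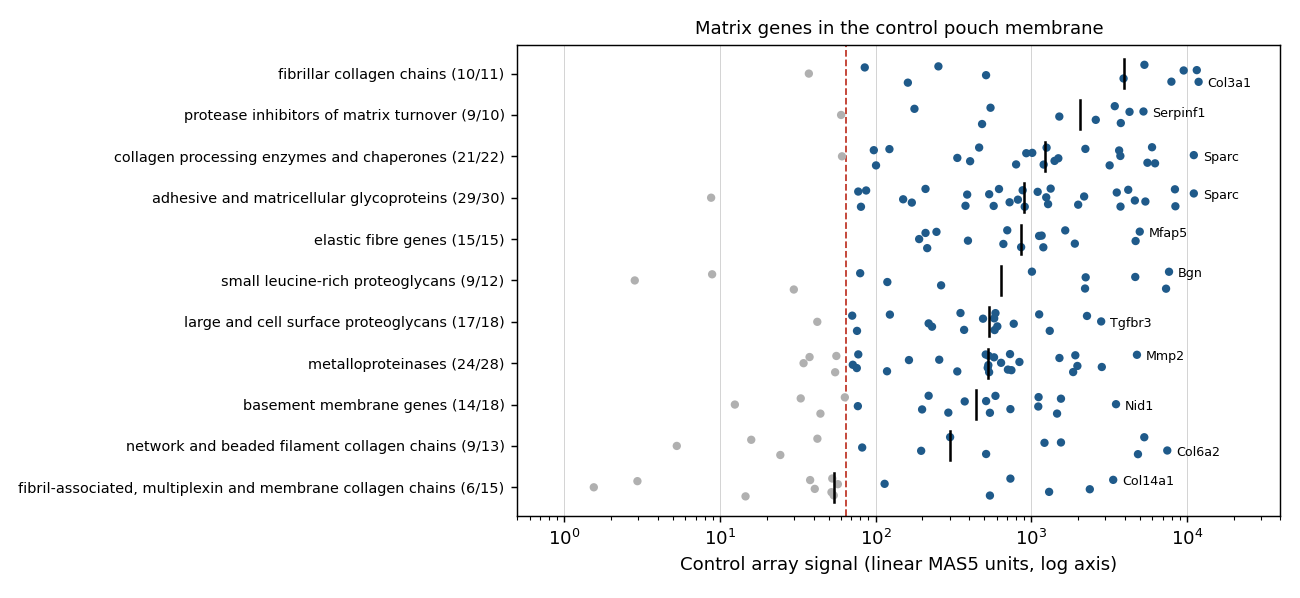
Signals of matrix genes on the control array, with 1 point per gene, the list medians as black bars and the floor of 64.6 as a dashed line. Fibrillar collagens have the highest list median and all 15 elastic fibre genes lie right of the floor, whereas 9 of 15 fibril-associated, multiplexin and membrane collagens lie left of it.

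Receptors were expressed at 263 of 374 (70.3%). Among 31 of 46 receptor tyrosine kinases above the floor, Csf1r of macrophages and Pdgfra of fibroblasts led, followed by Axl 1540.0, the receptor for GAS6 on dying cells, the fibroblast growth factor receptor Fgfr1 1414 and Ddr2 1104, a receptor for fibrillar collagen. Epha2 9.91, Erbb4 1.58 and Musk 29.9 were among those below. Integrins gave 19 of 24, led by Itgb1 2139, Itgav 1456, Itgb5 1397 and Itgb2 1243, the last being the leukocyte chain, and the epithelial chains Itgb4 52.5 and Itgb6 41.8 lay below the floor. Receptors of the TGF-beta family gave 12 of 14, led by Tgfbr2 4008 and Tgfbr3. Receptors of the Wnt, Notch and Hedgehog pathways gave 18 of 21, led by Fzd1 763, Notch2 533, Fzd2 433 and Lrp6 409. Axl, Fgfr1, Itgb1, Itgav, Tgfbr2, Fzd1, Notch2 and Lrp6 had probe sets that differed by over 4-fold.

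Cytokine receptors gave 33 of 45. The highest were Il6st 1135, the shared chain of the interleukin-6 family, Il10rb 1117, Osmr 949 and Lifr 891. Receptors for interleukin-1 (Il1r1 459), interleukin-4 (Il4ra 569.7), interferon gamma (Ifngr1 550.0) and interleukin-17 (Il17ra 379.8) were also above the floor. Those of lymphocytes were divided, with Il7r 98.9 above the floor, Il18rap 93.5 and Il27ra 65.9 near it and Il2ra 30.2, Il12rb1 55.1, Il21r 33.5 and Il9r 5.57 among those below. Il5ra 2.67 of eosinophils and Il22ra1 8.04, Il20ra 23.7 and Il20rb 19.2 of epithelium lay below it as well. In the TNF receptor family 14 of 25 passed, led by Tnfrsf1a 1388, Ltbr 589, Tnfrsf12a 454 and Tnfrsf1b 407, and members known from lymphocytes lay on both sides. Tnfrsf4 183 and Tnfrsf13b 154 were above the floor, Tnfrsf25 88.5, Tnfrsf9 70.5 and Tnfrsf8 66.02 near it and Tnfrsf13c 37.01, Tnfrsf17 27.8, Tnfrsf18 25.5 and Cd27 9.19 below. Chemokine receptors gave 10 of 21, led by the scavenger Ackr3 2083, Ackr1, Ccr2 and Ccr1 403, with Cxcr4 395 next. Of the receptors of lymphocytes, Cxcr3 108 was above the floor, Ccr6 73.5 near it and Ccr4 64.1, Cxcr5 39.4, Cxcr6 38.2, Ccr9 17.3, Ccr10 5.75 and Ccr8 3.26 among those below. Il6st, Il10rb, Osmr, Lifr, Il1r1, Il4ra, Tnfrsf9, Ccr1, Cxcr6 and Ccr9 had probe sets that differed by over 4-fold.

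Genes for the recognition of microbes and debris were broadly expressed. Pattern recognition receptors and adaptors gave 27 of 29, led by the lipopolysaccharide-binding protein Lbp 2866, Cd36 1617, the co-receptor Cd14 1357 and the adaptor Myd88 747. Toll-like receptors Tlr2 418 and Tlr4 223, which sense bacterial lipids, were above the floor. Tlr9 56.3 and Ager 12.4, the receptor for glycated proteins, lay below it. Fc, complement and phagocytic receptors gave 28 of 30, led by the mannose receptor, the neonatal Fc receptor Fcgrt 2759, Lrp1 2326 and the inhibitory Fcgr2b 2231, with Cr2 45.1 of B cells and Marco below. The complement peptide receptors C3ar1 882 and C5ar1 461 were above the floor. Lbp, Cd36, Tlr4, Ager, Lrp1 and Fcgr2b had probe sets that differed by over 4-fold.

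Receptors for lipid mediators were fewer, at 16 of 30. The lysophosphatidic acid receptor Lpar1 1108, the sphingosine phosphate receptors S1pr3 633 and S1pr2 407 and the prostaglandin E receptor Ptger4 361 led. Ptger1 8.27, Ptgdr2 6.45, Ltb4r1 35.8, Lpar3 16.3 and the nicotinic acid receptor Hcar2 16.5 lay below the floor. Of the receptors for purines, amines and peptides 23 of 40 passed (57.5%, beside 61.2% of all genes). The thrombin receptor F2r 1389, the endothelin receptor Ednrb 1214 and the nucleotide receptors P2rx4 919.5 and P2ry6 689.8 led. The bradykinin receptor Bdkrb2 24.4, the substance P receptor Tacr1 11.4 and the histamine receptor Hrh1 32.3 lay below. Nuclear receptors gave 22 of 37 (59.5%, beside 61.2% of all genes). The clock gene Nr1d2 908, the glucocorticoid receptor Nr3c1 635, Nr4a1 529.5 and the thyroid hormone receptor Thra 486 led. Esr1 346, the oestrogen receptor, and Pgr 172, the progesterone receptor, lay above the floor in these female mice, and of the liver and gonad receptors Nr5a2 90.3 was near it and Hnf4a 49.5, Nr1i2 19.5, Nr1h4 29.4 and Nr5a1 6.21 below. S1pr3, Ptger4, Ednrb, P2rx4, Bdkrb2, Nr1d2, Nr3c1, Esr1, Pgr, Nr5a2, Hnf4a and Nr1i2 had probe sets that differed by over 4-fold.

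Secreted factors as a whole were near the background, at 179 of 289 (61.9%) beside 61.2% of all genes, but the families differed. CXC and CX3C chemokines gave 14 of 16, led by Cxcl12 2238, which retains leukocytes and is made by fibroblasts, and the platelet and macrophage chemokine Pf4. The neutrophil attractants Cxcl1 825, Cxcl5 774, Cxcl2 538 and Cxcl3 245 were above the floor without crystals, and Cxcl9 56.6, an interferon gamma target, was below it. CC and XC chemokines gave 12 of 19, with Ccl6 5079, Ccl8 4436 and Ccl9 3775, macrophage chemokines of the mouse, followed by Ccl11 1132 (eotaxin) and the monocyte attractants Ccl2 1095 and Ccl7 575. Of the attractants of lymphocytes, Ccl17 66.3 was near the floor and Ccl5 62.4, Ccl22 10.02, Xcl1 6.79 and Ccl20 5.96 lay below it. Cxcl12 had probe sets that differed by over 4-fold.

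Interleukins and interferons gave 16 of 37 and had the lowest list median of the receptor and secreted families at 44.5. Il33 1301, a nuclear alarmin of fibroblasts and endothelium, was the highest, and the interleukin-1 antagonist Il1rn 369.8, interleukin-1 beta (Il1b 328), Il18 189.8 and Il6 174 came next. Among cytokines of T cells Il17a 92.2 was near the floor and Il4 36.3, Il21 20.1, Ifng 15.98, Il13 7.15, Il2 5.11, Il5 4.28, Il3 3.81 and Il9 3.12 lay below it, as did Il10 35.6, Il12b 28.7 and Il23a 6.12 of myeloid cells. TNF superfamily ligands gave 4 of 14, namely Tnfsf10 89.4, Tnfsf9 87.9, Ltb 83.8 and Tnfsf13b 77.1, all near the floor, and Tnf 37.4 itself lay below it. Tnfsf13b had probe sets that differed by over 4-fold.

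Growth factors gave 34 of 49. Progranulin led, followed by pleiotrophin (Ptn 1657), Gas6 1579 and Igf1 1413, and the macrophage growth factor Csf1 887 and the platelet-derived growth factor Pdgfc 944 were in the same range of ranks. Csf2 3.98, Csf3 50.9, Fgf2 15.6, Pgf 4.38 and Gdnf 3.7 lay below the floor. Growth factor binding proteins of the insulin-like family gave 6 of 9, with Igfbp4 6128, Igfbp7 4205, Igfbp6 2693, Igfbp5 2066 and Igfbp3 405 and the clearance receptor Igf2r 779 above and the liver products Igfbp1 25.98, Igfbp2 22.9 and Igfals 43.98 below. In the TGF-beta family 16 of 27 ligands and antagonists passed (59.3%, beside 61.2% of all genes). The follistatin-like Fstl1 6199, Bmp1 1495, Tgfb1 534 and Inhbb 411 led, and Bmp2 18.5, Bmp4 44.3, Gdf5 6.81 and Nog 30.5 lay below the floor. Wnt ligands and antagonists gave 13 of 32, and the antagonists Sfrp2 3407, Sfrp4 997 and Dkk3 388 led the ligand Wnt2 243 in rank. Wnt3 1.2, Wnt3a 37.7, Wnt1 40.8 and Wif1 6.27 lay below the floor. Ptn, Gas6, Csf1, Igfbp4, Igfbp5 and Tgfb1 had probe sets that differed by over 4-fold.

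Of the complement and coagulation genes 28 of 46 lay above the floor, which is 60.9% beside 61.2% of all genes. The C1 complex was represented by its C1q chains and by C1s1 2096 and C1ra 1337, and Cfb 1062, Cfp 854 and C2 358 were above the floor together with the inhibitor Serping1, the transglutaminase F13a1 4197 of macrophages and tissue plasminogen activator, Plat 1999. The probe set assigned to both C4a and C4b read 3581. Products of hepatocytes lay on both sides, with F7 145 and Cfi 125 above the floor, Hc 72.7 near it and F2 61.3, Plg 22.8, Fga 12.9, F9 12.4, Fgg 4.59, C8b 2.98, C8a 2.43 and Fgb 1.07 among those below. Adipokines and carrier proteins gave 22 of 23. After Selenop and Apoe came the acute phase serum amyloid Saa3 3778, the peroxidase Gpx3 3669 and haptoglobin (Hp 2248), and Ptgds 39.8 was the gene below the floor. Enzymes of prostaglandin and leukotriene synthesis gave 16 of 20, led by prostacyclin synthase (Ptgis 2091), Alox5ap 1709.7 of the leukotriene pathway, Lta4h 543 and Pla2g4a 349.6. Ptgs2 322 and Ptges 327, which make prostaglandin E2, were above the floor. Cfp, Plat and Lta4h had probe sets that differed by over 4-fold.

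**Figure D3:**
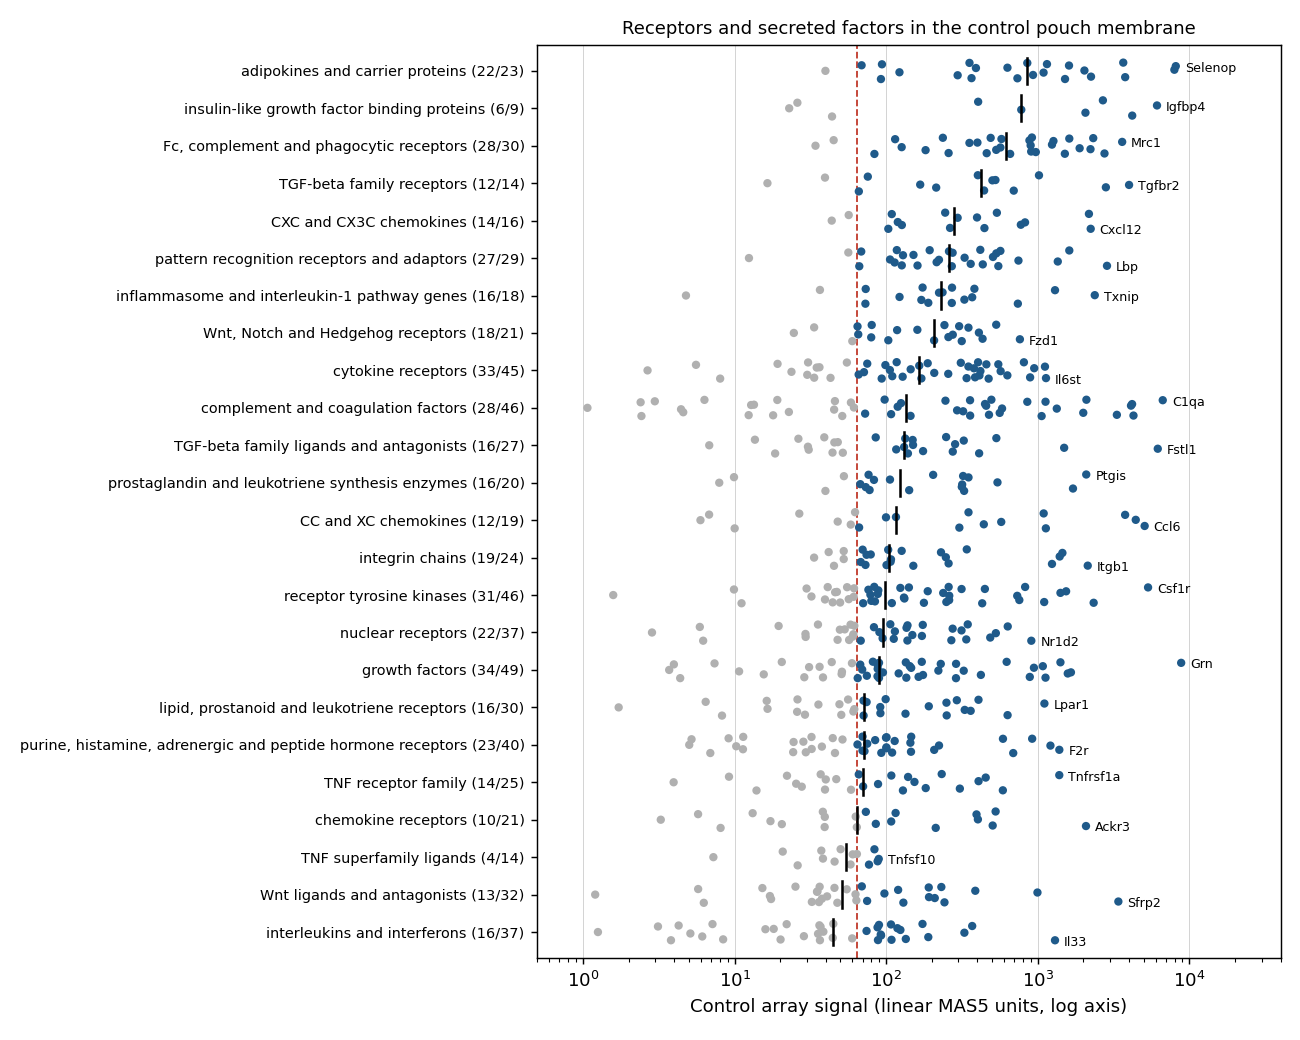
Signals of receptors and secreted factors on the control array, with 1 point per gene, list medians as black bars and the floor of 64.6 as a dashed line. Adipokines and carrier proteins have the highest list median, and for interleukins and interferons, Wnt factors, TNF superfamily ligands and chemokine receptors the median lies left of the floor.

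Both genes of a ligand and receptor pair lay above the floor for 41 of 70 pairs (58.6%), and taking every ligand of the list with every receptor of it gave 59.2%, which is about the same. Receptors passed in 53 of 61 cases and ligands in 47 of 69. The macrophage axis of Csf1 887, Il34 135 and Csf1r, the fibroblast axes of Pdgfc and Pdgfa 221 with Pdgfra and of Pdgfb 175 and Pdgfd 136 with Pdgfrb, and the stem cell factor Kitl 422 with Kit of mast cells were expressed on both sides. So were Cxcl12 with its receptors Cxcr4 and Ackr3, Gas6 with Axl, Pros1 1126 with Mertk 315, Igf1 with Igf1r 448, Tgfb1 with Tgfbr2, Ccl2 and Ccl7 with Ccr2, and Il1b with Il1r1. Vessel pairs on both sides were Vegfa 289 with Kdr, Vegfb 229 with Flt1 88.8, Vegfc 146 with Flt4, Angpt1 121 and Angpt2 89.7 with Tek 238, Efnb2 191 with Ephb4 109 and Jag1 430.2 with Notch1 275. Pairs of the immune and metabolic axes on both sides were Il6 174 with Il6ra 208, Il17a 92.2 with Il17ra, Lif 108 with Lifr, Osm 119 with Osmr, Cxcl10 398 with Cxcr3 108, Hc 72.7 (complement C5) with C5ar1, Cd200 215 with Cd200r1 189, Adipoq with Adipor1 929, Lep with Lepr 109.8 and Rarres2 1152 (chemerin) with Cmklr1 251. The remaining pairs with both genes above were Thbs1 1101 with Cd47 1473, Cd47 with Sirpa 1407, Mif 1517 with Cd74, Hgf 74.6 with Met 132, Fgf7 289 with Fgfr2 141, Nrg1 64.9 with Erbb3 259, Hbegf 143 with Egfr 826 and Wnt5a 74.9 with Ror2 188. Flt1, Flt4, Angpt2, Il17a, Hc, Lep, Hgf, Nrg1 and Wnt5a were near the floor, so the pairs that hold them passed only narrowly. Pdgfd, Kitl, Igf1r, Flt1, Angpt1, Angpt2, Efnb2, Jag1, Notch1, Adipor1, Lepr, Rarres2, Cmklr1, Cd47, Sirpa, Mif, Met, Erbb3 and Egfr had probe sets that differed by over 4-fold.

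The 7 pairs with only the ligand above the floor mostly had receptors of lymphocytes, granulocytes or monocyte subsets: Cxcl1 with Cxcr2, Ccl11 with Ccr3, Cxcl16 445 with Cxcr6 38.2, Cxcl13 296 with Cxcr5, Cx3cl1 109 with Cx3cr1, Il18 with Il18r1 30.6 and Il15 89.7 with Il2rb 34.9. In 21 pairs only the receptor passed, as for Tnf with Tnfrsf1a, Il4 with Il4ra, Il13 with Il13ra1 631, Csf2 with Csf2ra 349, Csf3 with Csf3r and Fgf2 with Fgfr1. The pair Prok2 41.9 and Prokr1 51.5 had neither. Of the ligands above the floor without their receptor, Il15 was near it. Cx3cl1, Il2rb, Il13ra1, Csf2ra and Prok2 had probe sets that differed by over 4-fold.

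**Figure D4:**
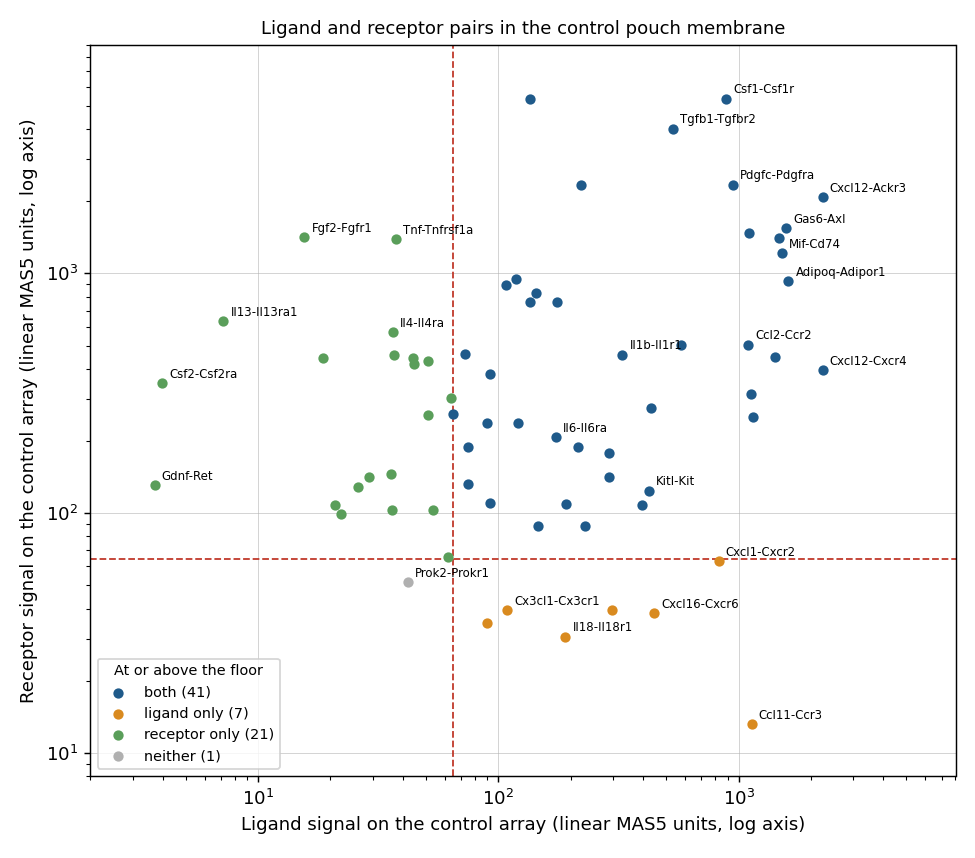
Signal of the ligand (horizontal log axis) and of its receptor (vertical log axis) on the control array for 70 pairs, with the floor of 64.6 as dashed lines and some pairs named. In 41 pairs both genes lie above the floor, in 21 only the receptor, in 7 only the ligand and in 1 neither.

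Fibroblasts keep the position code of the body region in which they arose, in the form of Hox genes, and 13 of 33 named Hox genes lay above the floor. None lay above the floor beyond paralogue group 9. Groups 8 and 9 gave 614, the highest Hox signal, for Hoxc8, 288 for Hoxd8, 151 for Hoxa9, 99.2 for Hoxd9 and 86.3, near the floor, for Hoxc9, with Hoxb9 5.14 below the floor. Groups 10 to 13, which pattern the lumbar and sacral trunk and the distal limb, had 0 of 10 above the floor, with Hoxa11 47.01 the highest of them, then Hoxa10 46.2, Hoxc10 38.6, Hoxa13 29.4, Hoxd13 23.2, Hoxd11 21.4, Hoxd10 11.1, Hoxc13 4.3, Hoxd12 4.12 and Hoxb13 3.39. More anterior genes above the floor were Hoxb2 294, Hoxc6 221, Hoxb3 186, Hoxa5 121, Hoxc5 101, Hoxc4 97.5 and, near the floor, Hoxa3 87.3 and Hoxb4 77.6. Those below were Hoxb6 36.8, Hoxb7 36.6, Hoxb1 23.4, Hoxa2 22.3, Hoxd3 21.03, Hoxa4 20.04, Hoxd1 11.98, Hoxa7 9.56 and Hoxb5 5.24, so all 5 measured genes of cluster C from Hoxc4 to Hoxc9 passed while Hoxb5, Hoxb6, Hoxb7 and Hoxb9 of cluster B did not. Hoxd13 and Hoxc6 had probe sets that differed by over 4-fold.

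**Figure D5:**
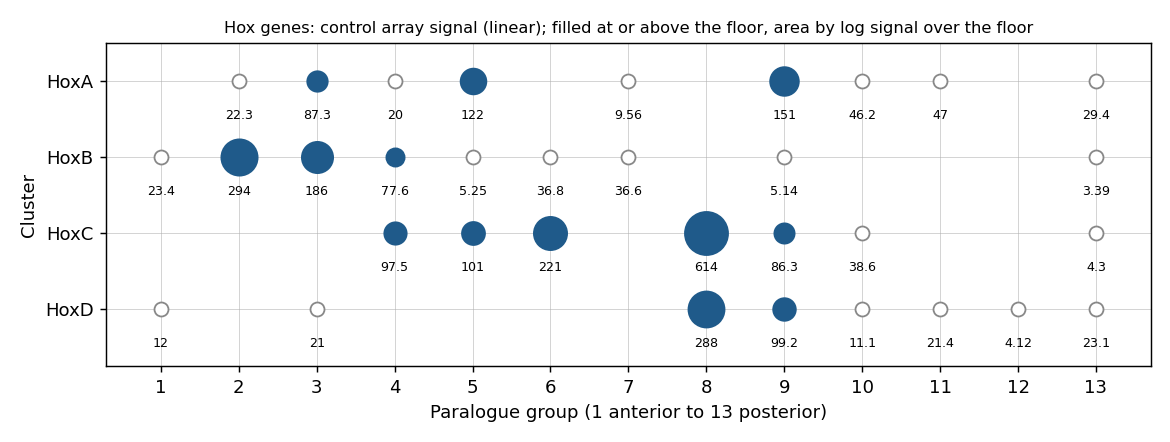
Hox genes on the control array by cluster (rows) and paralogue group (columns), with the signal printed under each gene. Filled circles lie at or above the floor of 64.6 and grow with the log of the signal over the floor, and open circles lie below. Filled circles reach from group 2 to group 9, and all 10 genes of groups 10 to 13 are open.

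Of the other position factors 13 of 24 lay above the floor. Tbx15 482, a factor of the dorsal dermis and trunk skeleton, led, followed by Zic1 248 of dorsal tissue, Meis2 206, Shox2 168, Irx3 168, Emx2 161, Tbx18 156, Irx5 152, Msx1 148, Irx1 119 and Meis1 104, and Six2 88.4 and En1 81.7 were near the floor. The factors that define forelimb (Tbx5 47.7) and hindlimb (Tbx4 12.1 and Pitx1 33.4) lay below it, as did those of the face (Alx1 18.2, Alx4 39.5, Barx1 64.2 and Dlx5 42.2), the sclerotome (Pax1 6.54 and Pax9 20.2), Msx2 27.1 and Lmx1b 51.04. Tbx15, Meis2, Shox2, Msx1, Meis1, Tbx5, Alx1 and Lmx1b had probe sets that differed by over 4-fold.

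The NLRP3 inflammasome is the complex through which macrophages respond to urate crystals, and in this membrane without crystals 16 of 18 genes of the inflammasome and interleukin-1 list lay above the floor. The sensor Nlrp3 272, its adaptor Pycard 271, caspase 1 (Casp1 171), the partner kinase Nek7 739.9, the pore protein Gsdmd 382 and the potassium-linked receptor P2rx7 223 were all above it, with Txnip 2380.4 the highest of the list. Interleukin-1 alpha (Il1a 36.6) and the DNA sensor Aim2 4.78 lay below. Genes of urate production, salvage and transport gave 17 of 22. The purine enzymes Pnp 2128, Ampd2 1316, Aprt 1079 and Hprt 1001 led, Xdh 157, which makes urate, and the urate exporter Abcg2 387 were above the floor, and uricase, the liver enzyme that degrades urate in mice, is the Uox gene given above. The kidney transporters Slc22a6 14.4, Slc22a8 38.3, Slc17a1 8.42 and Slc17a3 47.1 and the urate carrier Slc2a9 26.1 lay below, and Slc22a12 78.4 was near the floor. Pycard, Nek7, P2rx7, Ampd2 and Slc2a9 had probe sets that differed by over 4-fold.

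Promoters of the genes above and below the floor were set side by side for the letters they hold. Promoters were taken from RefSeq (mouse build GRCm38.p6) as 300 bases, 250 before and 50 after each annotated start, which were given for 14368 of the 18193 genes, with 18009 promoters. Promoters of genes above the floor held a median of 20 CpG dinucleotides and those of genes below it 7, beside 16 for all genes with a signal and 7 for all 32851 promoters of the table. The motif TATAAA on the coding strand, lying within 45 to 16 bases before the start, was in 1.46% of promoters above the floor and 3.9% of those below, beside 2.33% for all genes with a signal and 2.14% of the table, and in 6 of 107 promoters (5.61%) of the genes with the 100 highest signals. Among the lists, the share was highest in epidermal and follicle markers, at 6 of 13 promoters (46.2%), a list with 5 of 19 genes above the floor, and the muscle myosins followed with 3 of 8 (37.5%). CCAAT on either strand was in 15 of 17 promoters of the cell division genes (88.2%), beside 37.4% both of all genes with a signal and of the table. These are counts of letters, not of bound sites.

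The promoters of matrix, muscle and chemokine genes with the motif among the highest signals, and of cell cycle genes with CCAAT, are shown from 100 bases before to 20 bases after the start, in the direction of transcription. Capitals mark the motif TATAAA. They also mark CCAAT where it lies on the strand shown, and the letters ATTGG where it lies on the other strand. Postn is given by the second of its 2 annotated promoters, since the other, upstream, lacked TATAAA in the window. The first 4 carry TATAAA once each and the last 3 carry CCAAT or ATTGG between 2 and 3 times.
Postn (chr3:54361007-54361126, plus strand): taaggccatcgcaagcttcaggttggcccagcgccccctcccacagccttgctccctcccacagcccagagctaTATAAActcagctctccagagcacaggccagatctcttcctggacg
Myh1 (chr11:67200002-67200121, plus strand): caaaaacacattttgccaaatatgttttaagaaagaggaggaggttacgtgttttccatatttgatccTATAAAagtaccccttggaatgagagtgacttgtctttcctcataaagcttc
Ccl8 (chr11:82115085-82115204, plus strand): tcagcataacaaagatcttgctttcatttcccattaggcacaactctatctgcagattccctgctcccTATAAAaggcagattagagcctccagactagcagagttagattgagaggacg
Myh4 (chr11:67237712-67237831, plus strand): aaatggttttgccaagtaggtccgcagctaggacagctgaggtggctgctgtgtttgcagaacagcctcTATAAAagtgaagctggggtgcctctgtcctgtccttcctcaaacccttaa
Cdk1 (chr10:69352893-69353012, minus strand): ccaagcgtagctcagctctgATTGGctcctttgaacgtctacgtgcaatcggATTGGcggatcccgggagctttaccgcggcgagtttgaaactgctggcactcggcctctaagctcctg
Top2a (chr11:99024170-99024289, minus strand): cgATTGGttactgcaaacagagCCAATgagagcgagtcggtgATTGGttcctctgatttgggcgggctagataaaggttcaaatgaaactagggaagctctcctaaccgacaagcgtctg
Ccnb2 (chr9:70421535-70421654, minus strand): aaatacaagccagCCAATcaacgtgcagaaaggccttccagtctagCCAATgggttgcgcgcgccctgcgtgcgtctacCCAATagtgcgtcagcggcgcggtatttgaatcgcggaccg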

How the data were processed

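RNA of dissected pouch membranes was pooled from 3 control mice and hybridised by the authors to 1 Affymetrix Mo430_2 array. Each probe set has 1 deposited intensity on a linear scale, obtained by the authors with Affymetrix GCOS (MAS5 in the submitters' processing notes) and then viewed and filtered in GeneSpring. They were used unchanged. Detection calls and the array of the crystal group are not analysed here.

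On the array are 45101 probe sets, of which 64 Affymetrix control probe sets were left out. Counted before the control probe sets were left out, the platform annotation gave 1 gene to 34958 probe sets, several genes to 932 and none to 9211. Symbols were updated through gene identifiers with RefSeq (GRCm38.p6), which also gave the promoters. A gene took its brightest probe set. The floor was the signal at which the ranked probe sets reached the number that the paper counts as detected, and takes no account of probe-level background. Among 4561 genes with at least 2 probe sets above the floor, their log2 signals had a median SD of 0.72 and a 90th percentile of 1.59. Control probe sets read 3′ over 5′ ratios of 0.745 for Gapdh and 1.17 for Actb. With 1 array there was no p-value, and the number of arrays limits the precision.

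The 70 lists (1278 named genes) and the 82 pairs, of which 70 had both genes named, were chosen with earlier results of these data known. Genes were named in the text as the 40 highest signals, the highest 4 members of each list, all members of short lists, defining members below the floor, the Hox and position genes, and pairs with both or neither gene above it. Further members, and pairs with 1 gene above it, were named after their values were seen. Alternatives were floors at the 15000th and 25000th brightest probe set and at the 95th percentile of 75 sensory receptor genes, the median of each gene's probe sets, dropping those ending in _x_at or _s_at, and counting probe sets of several genes for each. The gene step was tested on simulated data. Computations used Python 3.11.15, pandas 2.3.3, numpy 2.4.6 and matplotlib 3.10.9.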

Additional observations from a re-analysis of the deposited data

How the results depend on the processing

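The count of genes above the floor ranged from 8804 (floor 115.5, the 15000th brightest probe set) to 12482 (floor 44.9, the 25000th) beside 11128. It was 10421 with a floor of 77.5 from sensory receptor genes, 9670 with the median over probe sets and 10720 without probe sets ending in _x_at or _s_at. The count of pairs with both genes above ranged from 29 to 47 beside 41.

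Among 70 lists, the floor of 115.5 lowered 56 counts, 18 of them by over 1.5 times. These were B and plasma cells 3 of 12, Hox genes 7 of 33, Schwann cells and nerve 4 of 13, T cells 1 of 11, TNF superfamily ligands 0 of 14, blood endothelium 12 of 22, cartilage, bone and tendon 3 of 14, granzymes 0 of 10, dendritic cells 8 of 18, epidermis 1 of 19, integrins 10 of 24, interleukins 8 of 37, lipid receptors 10 of 30, mast cells 5 of 16, natural killer cells 1 of 16, prostaglandin and leukotriene enzymes 10 of 20, purine, amine and peptide receptors 10 of 40, and genes of other organs 2 of 36. The floor of 44.9 raised TNF superfamily ligands to 9 of 14, fibril-associated, multiplexin and membrane collagens to 10 of 15, mesothelium to 2 of 8, satellite cells to 4 of 10 and genes of other organs to 11 of 36. With the floor of 77.5, granzymes fell to 1 of 10, epidermis to 3 of 19, natural killer cells to 3 of 16 and genes of other organs to 4 of 36. Medians over probe sets gave B and plasma cells 3 of 12 and T cells 0 of 11. Probe sets of several genes raised red cells and platelets to 4 of 7. Fibroblast, macrophage, adipocyte and muscle counts stayed within 1.5 times of the main count under each of these settings.

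No paired analysis was possible because each group is 1 pooled array. Differences between mice, and the order of genes by transcript amount, cannot be read from these values.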

Other observations

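Of 9160 probe sets without a gene in the annotation, 2060 (22.5%) lay above the floor and 97 had a signal over 1000, the brightest 7313. Of 92 named genes of the mitochondrial respiratory chain and ATP synthase 87 lay above the floor, with a median of 914, as did 37 of 40 proteasome subunits and 12 of 18 cathepsins, 4 of the latter among the 100 highest signals. Of 16 interferon-induced GTPase and IFIT genes 12 lay above the floor and 0 were among the 1000 highest, with a median of 312.5.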
